A study of Macaca fascicularis with 6 samples.

Results

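Of 320 single cells recovered from transplanted organoid cartilage, 54 carried reads of COL1A1, a chain gene of type I collagen. These 54 COL1A1-positive cells, chosen by their measured COL1A1 counts alone, are described here beside the other 266 cells, in which COL1A1 was listed at 0. The share was 16.9% (exact Clopper-Pearson 95% confidence interval 12.9 to 21.4%), and the series held 7007 cells in all. The organoids (cyiPS-Cart) were grown from 1466A1, a single line of cynomolgus monkey iPS cells that carries EGFP at the AAVS1 locus under the CAG promoter, which is active in most cell types. Allogeneic cyiPS-Cart was placed into chondral defects of the knee in monkeys 3 to 4 years old and recovered 4 months later as post-transplant cyiPS-Cart, whose label gives the genotype as wild type, read here as that of the recipients since the transplanted line carries EGFP. Material from 2 sites of each monkey was combined, how many of the monkeys examined at this time entered the library is not stated in the sources used here, and live cells were sorted by flow cytometry before TAS-Seq, a whole-transcriptome single-cell method. Another 3 samples of 320 cells each were used for comparison. They were pre-transplant cyiPS-Cart of the same EGFP line, intact articular cartilage of wild type monkeys 3 to 4 years old (cyAC), and the fibrous tissue that had filled empty defects of wild type monkeys of that age after 4 months (cyFT).

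Type I collagen is assembled from the products of COL1A1 and COL1A2 and forms the fibrils of skin, tendon, bone and fibrous repair tissue. Hyaline cartilage uses type II collagen instead, the product of COL2A1, together with the minor collagens of types IX and XI and the proteoglycan aggrecan. Cells that make both kinds are known from fibrocartilage, from the perichondrium and from chondrocytes that lose their phenotype in culture.

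Each condition was 1 sample, so no test was run, and n = 1 for every comparison. The COL1A1 counts of these cells chose the groups, and all other genes were read in the same cells, so the contrasts below are descriptions. A level is the mean over cells of reads scaled to 1000000 per cell (CPM), a difference is the log2 ratio of mean CPM + 1 in COL1A1-positive over COL1A1-negative cells, and intervals cover counting error only. Confidence intervals on summed reads treat reads as independent, although no counting of molecules is described. COL1A1-positive cells held 5259522 reads and COL1A1-negative cells 24595898, with medians of 80595.5 and 79730 reads and of 2546 and 2614 genes per cell, so depth was close to equal. Mitochondrially encoded genes took a median of 2.45% of reads in COL1A1-positive and 1.61% in COL1A1-negative cells. A doublet caller marked 8 of the 320 cells, of which 1 was COL1A1-positive, and no cell number was shared between samples.

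COL1A1 was abundant wherever it was found. In COL1A1-positive cells it ranged from 3012 to 119970 CPM with a median of 63591 CPM. The lowest positive cells held 497, 516 and 570 reads, and below them the next cells were at 0. No cell lay in between. The authors zeroed low counts of selected strongly expressed genes as possible reads of diffused RNA, and whether this made the gap was not tested. A low true level of COL1A1 cannot be told apart from absence in the COL1A1-negative cells.

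COL1A2, which codes for the partner chain, did not follow the same split. It had reads in 53 of 54 COL1A1-positive cells (98.1%, 90.1 to 99.95%) and in 230 of 266 COL1A1-negative cells (86.5%, 81.8 to 90.3%). The level ranged from 0 to 86279 CPM in COL1A1-positive cells with a median of 51482 CPM, against 0 to 91414 CPM and a median of 18067 CPM in COL1A1-negative cells. Its mean was 1.17 higher on the log2 scale in COL1A1-positive cells, and the groups overlapped over nearly the whole range. In cyFT, by contrast, COL1A2 reads were found in all 203 COL1A1-positive cells and in 10 of 117 COL1A1-negative cells (8.55%, 4.17 to 15.2%). In cyAC they were found in all 19 COL1A1-positive cells and in 18 of 301 others. A gap between the chains as wide as in post-transplant cyiPS-Cart was seen among the other samples in pre-transplant cyiPS-Cart, where 77 of 320 cells were COL1A1-positive and 232 of the other 243 had COL1A2 reads.

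COL2A1, the cartilage collagen, was present in most of the same cells. Reads of both COL1A1 and COL2A1 were found in 47 cells, of COL1A1 alone in 7 cells, of COL2A1 alone in 265 cells and of neither in 1 cell. COL2A1 ranged from 0 to 69768 CPM in COL1A1-positive cells with a median of 28454 CPM, and from 0 to 105208 CPM in COL1A1-negative cells with a median of 53575 CPM. The COL1A1-positive cells occupied the lower part of the COL1A1-negative range, with a log2 ratio of -1.01. This value lay at the 2-fold line and was -0.92 when COL1A1, COL1A2, COL2A1 and COL3A1 were left out of the total. Within the 54 COL1A1-positive cells, COL2A1 and COL1A1 had a Spearman correlation of -0.38 and COL1A2 and COL1A1 one of 0.39, in cells that share a library and a fixed total.

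**Figure D1:**
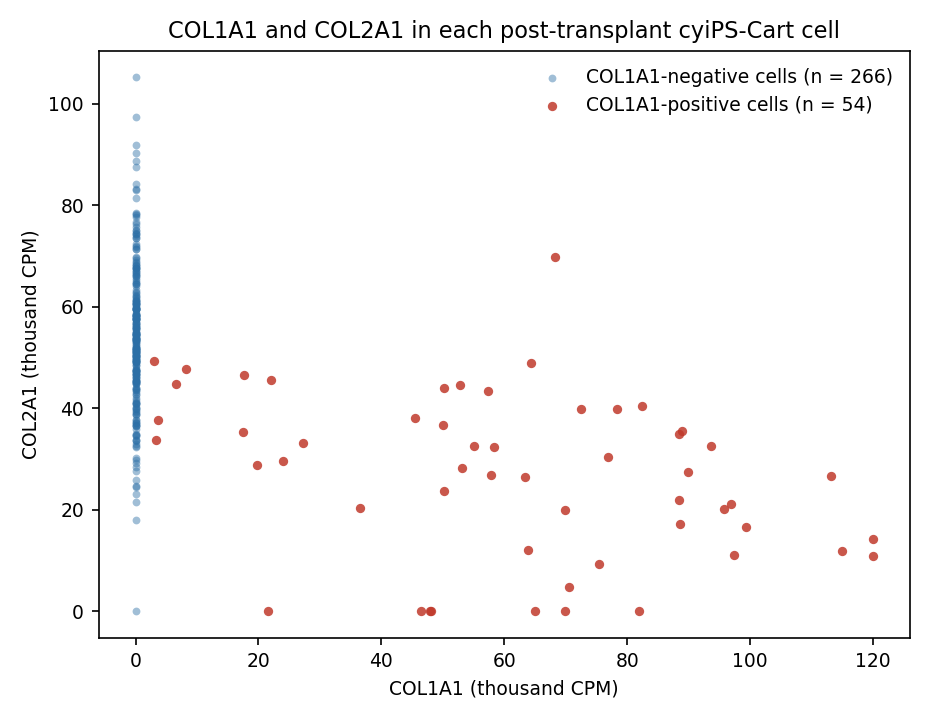
COL1A1 (x axis, in units of 1000 CPM) and COL2A1 (y axis, in units of 1000 CPM) in each of the 320 post-transplant cyiPS-Cart cells, with COL1A1-positive cells in red and COL1A1-negative cells in blue. The 47 cells with both collagens spread across the COL1A1 axis, and 7 COL1A1-positive cells and 1 COL1A1-negative cell lie at 0 on the COL2A1 axis.

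The reporter was read in every cell. GFP-polyA, the EGFP transcript of the donor line, ranged from 1345 to 13190 CPM in COL1A1-positive cells with a median of 4328 CPM, and from 532 to 17178 CPM in COL1A1-negative cells with a median of 5341 CPM. The groups overlapped almost fully, and the log2 ratio was -0.25. All 54 COL1A1-positive cells had GFP-polyA reads (lower limit 93.4%), as did all 266 others, whereas 0 of 320 cyFT cells and 0 of 320 cyAC cells did, which allows a share of cells with reads of up to 0.938% in each (3 counts of the total, not a Clopper-Pearson limit). Because cyFT and cyAC were another library, they do not show how much free GFP-polyA RNA the post-transplant suspension held. The 7 COL1A1-positive cells without COL2A1 reads had 3574 to 11281 CPM of GFP-polyA with a median of 6034 CPM.

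**Figure D2:**
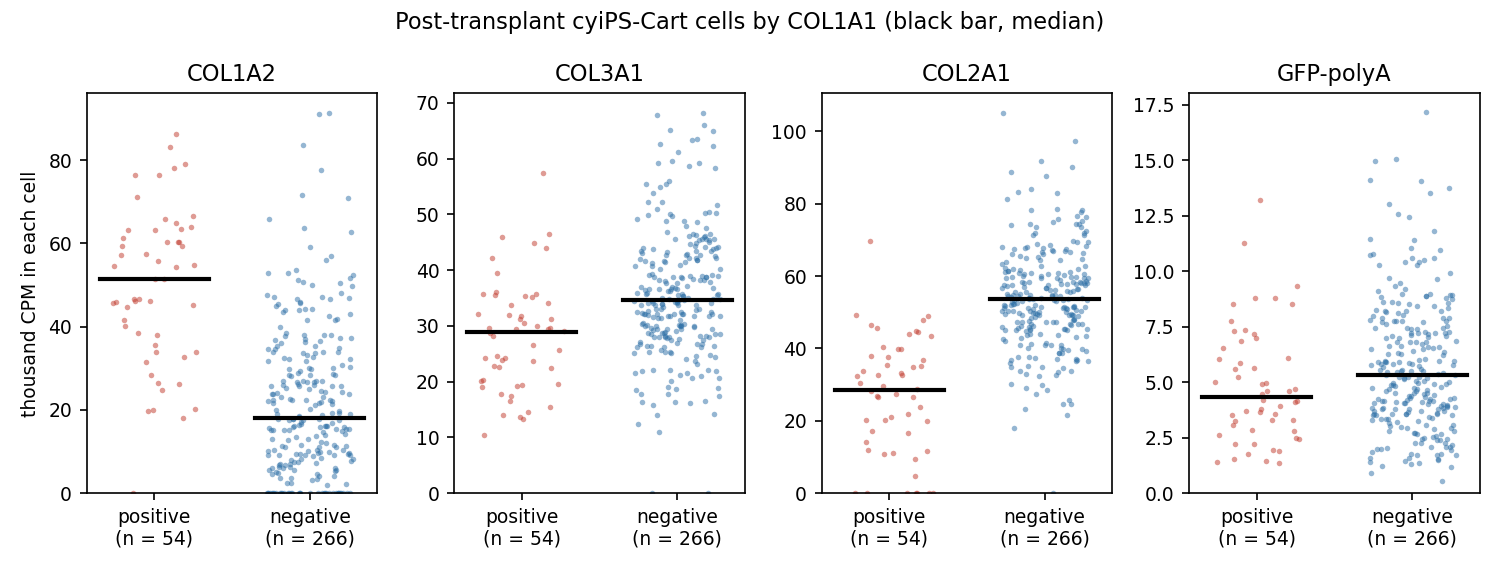
COL1A2, COL3A1, COL2A1 and GFP-polyA (y axis, in units of 1000 CPM) in each COL1A1-positive (red) and COL1A1-negative (blue) post-transplant cyiPS-Cart cell, with black bars at the medians. COL1A2 medians are 51482 and 18067 CPM, COL2A1 medians 28454 and 53575 CPM, and GFP-polyA medians 4328 and 5341 CPM.

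Across 3082 genes with at least 50 CPM in either group, 216 (7.01%) were at least 2-fold higher in COL1A1-positive cells, 186 (6.04%) were at least 2-fold lower, and the median log2 ratio was 0.01. Genes that reached 50 CPM only in the group where they were higher are part of both counts. With the 4 collagen genes named above left out of the total, 334 genes were higher and 177 lower. The same contrast within pre-transplant cyiPS-Cart put 2.41% of 3445 genes higher and 2.06% lower, and a larger set of 3527 pre-transplant cells put 1.81% of 3366 genes higher and 1.84% lower. In cyFT the shares of 3769 genes were 9.76% and 11.3%, and in cyAC the shares of 3734 genes were 24.1% and 15.9%.

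The other fibril collagens were mixed. Among 10 fibrous collagens at 50 CPM, 4 were at least 2-fold higher in COL1A1-positive cells, 0 lower, and the median log2 ratio was 0.86. COL1A1, which defined the groups, is 1 of the 4, and without it 3 of 9 were higher and the median was 0.76. Besides COL1A1 and COL1A2 these were COL8A1, a short-chain collagen of vessel walls and basement membranes, with 217 against 50.5 CPM (2.08), and COL14A1, which binds to type I fibrils, with 249 against 74.2 CPM (1.73). COL12A1, of the same fibril-associated class as COL14A1, reached 410 against 210 CPM (0.96). COL3A1, which forms mixed fibrils with type I collagen in soft fibrous tissue, went the other way with 28087 against 35757 CPM (-0.35). COL5A1, whose product nucleates type I fibrils, was at 1670.04 against 1602 CPM (0.06).

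Of 6 cartilage collagens, 0 were 2-fold higher in COL1A1-positive cells and 2 were 2-fold lower, COL2A1 and COL9A1, with a median log2 ratio of -0.85. COL9A1, which decorates type II fibrils, ranged from 0 to 23052 CPM in COL1A1-positive cells with a median of 2687 CPM, and from 1672 to 32610 CPM with a median of 11895 CPM in COL1A1-negative cells. The ratio was -1.48, although 51 of 54 COL1A1-positive cells still held reads. COL11A2 (-0.92), COL9A2 (-0.77) and COL11A1 (-0.47) lay between COL9A1 and 0.

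Among 11 non-collagen cartilage matrix genes, 5 were at least 2-fold lower and 1 higher in COL1A1-positive cells, with a median of -0.51. MATN3, a matrilin that links cartilage fibrils, had reads in 3 of 54 COL1A1-positive cells (5.56%, 1.16 to 15.4%) and 174 of 266 others (65.4%, 59.4 to 71.1%). Its means were 12.5 and 393 CPM (-4.87), and the summed reads gave 15.0 CPM (exact Poisson 95% interval 11.9 to 18.7) and 421 CPM (413 to 430). SNORC, a small cartilage proteoglycan, had reads in 20 of 54 and 248 of 266 cells with 219 against 1378 CPM (-2.65). CNMD, which codes for chondromodulin, an inhibitor of vessel growth, had reads in 8 of 54 and 108 of 266 cells (-3.55), and CILP of the middle zone of cartilage in 14 of 54 and 173 of 266 cells (-2.34). UCMA, a small secreted protein of immature cartilage, completed these genes (-2.10). The zeroing of low counts may also apply to genes such as these, so a low level cannot be told apart from absence.

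The proteoglycan core of cartilage differed less. ACAN, which codes for aggrecan, had 4088 against 5841 CPM (-0.51) and reads in 53 of 54 COL1A1-positive cells. HAPLN1, its link protein, was at -0.30 and SCRG1, a secreted chondrocyte protein, at 0.06. MATN4, another matrilin, was the member 2-fold higher, with 376 against 186 CPM (1.01). SOX9, the transcription factor that drives chondrogenesis, had reads in 45 of 54 and 245 of 266 cells, with 501 against 754 CPM (-0.59). In the 47 COL1A1-positive cells with COL2A1 reads its mean was 327 CPM, a log2 ratio of -1.20, and in the other 7 it was 1671 CPM. Over all 54 cells, none of 4 chondrogenic and skeletal transcription factors and none of 5 hypertrophy and mineralization genes at 50 CPM was past 2-fold in either direction (medians -0.11 and -0.26).

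Of 17 matricellular and elastic fiber genes, 7 were at least 2-fold higher in COL1A1-positive cells, 0 lower, and the median was 0.63, or 0.34 without the 7 COL1A1-positive cells that lacked COL2A1 reads. Among the 14 members with a mean of 50 CPM over all 320 cells, 4 were higher and the median was 0.22. POSTN, which codes for periostin of the periosteum and of healing tissue, had reads in 29 of 54 COL1A1-positive cells (53.7%, 39.6 to 67.4%) and 62 of 266 others (23.3%, 18.4 to 28.9%). Its means were 936 and 219 CPM (2.09). THBS2, an anti-angiogenic thrombospondin, had reads in 40 of 54 and 92 of 266 cells with 589 against 156 CPM (1.91). ELN, the gene of elastin, was found in all 54 COL1A1-positive cells, from 7.21 to 2753 CPM with a median of 491 CPM, against a median of 178 CPM in the others (1.26). The remaining 4 were FBLN5 (4.03) and FBLN2 (2.88), fibulins of the elastic fiber, FBN2 (2.39), a microfibril fibrillin, and MFAP2 (1.03), a microfibril-associated protein. The summed level of the whole list was lower in COL1A1-positive cells, with medians of 69804 and 86046 CPM, since SPARC, a collagen-binding glycoprotein that takes most of the sum, had 46586 against 61626 CPM (-0.40).

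Other matrix groups gave smaller or mixed differences. Of 9 small leucine-rich proteoglycans, which coat collagen fibrils, DCN (decorin) was lower with 2336 against 6774 CPM (-1.54), ASPN (asporin) was higher with 370 against 120.03 CPM (1.62), and BGN (biglycan) was at 0.07. Among 8 proteases and TIMPs, MMP2, a gelatinase, had 103 against 33.3 CPM (1.60) and TIMP3, a matrix-bound inhibitor, 857 against 421 CPM (1.03), while MMP16 was lower (-1.01). By the mean over all 320 cells MMP2 was under 50 CPM, which left 1 of 7 higher. Enzymes and chaperones that make collagen were nearly level, with 1 of 21 past 2-fold (P3H2, a prolyl hydroxylase, -1.17) and a median of -0.08. SERPINH1, the collagen chaperone, was at 1634 against 1718 CPM (-0.07).

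Of 7 fibroblast and perichondrium genes at 50 CPM, 2 were 2-fold higher, with a list median of 0.40. S100A4, a calcium-binding protein of motile mesenchymal cells, had reads in 36 of 54 cells (66.7%, 52.5 to 78.9%) and 96 of 266 (36.1%, 30.3 to 42.2%), with 799 against 237 CPM (1.75). THY1, a surface protein of fibroblasts, had 189 against 70.2 CPM (1.42), and PRRX1, a limb mesenchyme factor, 192 against 110 CPM (0.80). Without the 7 cells that lacked COL2A1 reads the ratio of THY1 was 0.92, under 2-fold, and that of PRRX1 0.33. FAP, a surface protease of activated fibroblasts (-0.32), and VIM, the mesenchymal intermediate filament (-0.10), were the 2 of 7 below 0. DPT, which codes for the matrix protein dermatopontin, had reads in 57.4% of COL1A1-positive and 54.5% of COL1A1-negative cells, with 184 against 139 CPM (0.40). PDGFRA, a growth factor receptor, had reads in 7.41% and 4.14% of cells, and TWIST1, a mesenchymal transcription factor, in 9.26% and 6.39%. The tendon marker TNMD and the osteoblast genes SP7, IBSP and ALPL were at 0 in all cells of both groups. Another tendon marker, MKX, had reads in 16.7% of COL1A1-positive and 19.5% of COL1A1-negative cells, and SCX was not in the matrix. The osteoblast genes RUNX2 and BGLAP had reads in 5.56% and 6.39%, and in 3.70% and 4.89%. All 3 tendon and ligament genes at 50 CPM were within 2-fold (median -0.44).

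Contractile genes gave 2 of 6 past 2-fold, TAGLN (2.29) and CALD1 (1.19), both of the actin cytoskeleton, with a median of 0.39. By the mean over all 320 cells TAGLN was under 50 CPM, which left 1 of 5 past 2-fold and a median of 0.32. PRG4, the lubricin of the joint surface, had 1145 against 1399 CPM (-0.29), and among 5 superficial zone genes DKK3, a secreted glycoprotein of the WNT antagonist family, was 2-fold higher (1.31). DKK3 was also the 1 of 3 WNT antagonists past 2-fold (list median 0.19). In the IGF list, 3 of 7 genes were higher, the binding proteins IGFBP6 (1.51), IGFBP4 (1.20) and IGFBP3 (1.03), and 0 were lower (median 0.48), with 1 of 5 higher among members with a mean of 50 CPM over all 320 cells, while the growth factor IGF2 had 1648 against 2882 CPM (-0.81). The BMP and GDF list had BMPR2, a receptor, higher (1.19) and BMP2, a ligand, lower (-1.04) among 8 genes (median 0.05). Among the 7 of these with a mean of 50 CPM over all 320 cells, 0 were higher, 1 was lower and the median was -0.25.

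Of 12 TGF-beta pathway genes at 50 CPM, 3 were at least 2-fold lower in COL1A1-positive cells, 0 were higher, and the median was -0.62. SKIL (-1.32) and SMAD7 (-1.11), feedback inhibitors of the pathway, were among the 3. The ligand genes TGFB1 (0.86) and TGFB3 (0.78) and the secreted product TGFBI (0.79) were on the other side of 0 without reaching 2-fold, with TGFB3 at 0.07 when the 7 cells that lacked COL2A1 reads were left out. Of 4 YAP targets, CCN2, a matricellular growth factor regulator, was lower (-1.45), with a list median of -0.28.

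Immediate early genes, which cells switch on within minutes of a stimulus or of tissue digestion, were the list with the lowest median, -1.54 over 12 genes, of which 8 were at least 2-fold lower and 0 higher. FOS ranged from 0 to 13414 CPM in COL1A1-positive cells with a median of 1204 CPM, and from 0 to 31210 CPM with a median of 4783 CPM in the others (-1.50). FOSB, its relative, had reads in 5 of 54 (9.26%, 3.08 to 20.3%) and 120 of 266 cells (45.1%, 39.0 to 51.3%), a log2 ratio of -4.10. JUN (-1.61), KLF4 (-1.87), ZFP36 (-1.71), IER3 (-1.69), EGR1 (-1.58) and EGR2 (-1.48) were the others past 2-fold. NR4A1 (-0.17), KLF6 (-0.18) and DUSP1 (-0.43) differed less. Cells were digested with Liberase, and the part of digestion in this difference was not tested.

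Hypoxia and glycolysis genes were lower in 4 of 12 cases and higher in 0, with a median of -0.70, led by CA9, a carbonic anhydrase (-1.27), and SLC2A1, the glucose transporter GLUT1 (-1.16). Mitochondrially encoded genes stood on the other side, with 3 of 12 at least 2-fold higher (ND3, COX1 and COX2), 0 lower and a median of 0.80. COX1, a subunit of respiratory complex IV, had 5183 against 2249 CPM (1.20). By the mean over all 320 cells ND3 was under 50 CPM, which left 2 of 11 higher and a median of 0.79. Without the 7 cells that lacked COL2A1 reads, 0 of the 12 were past 2-fold and the median was 0.46. A higher mitochondrial share can mark a damaged cell as well as an active one, and which applied was not tested.

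**Figure D3:**
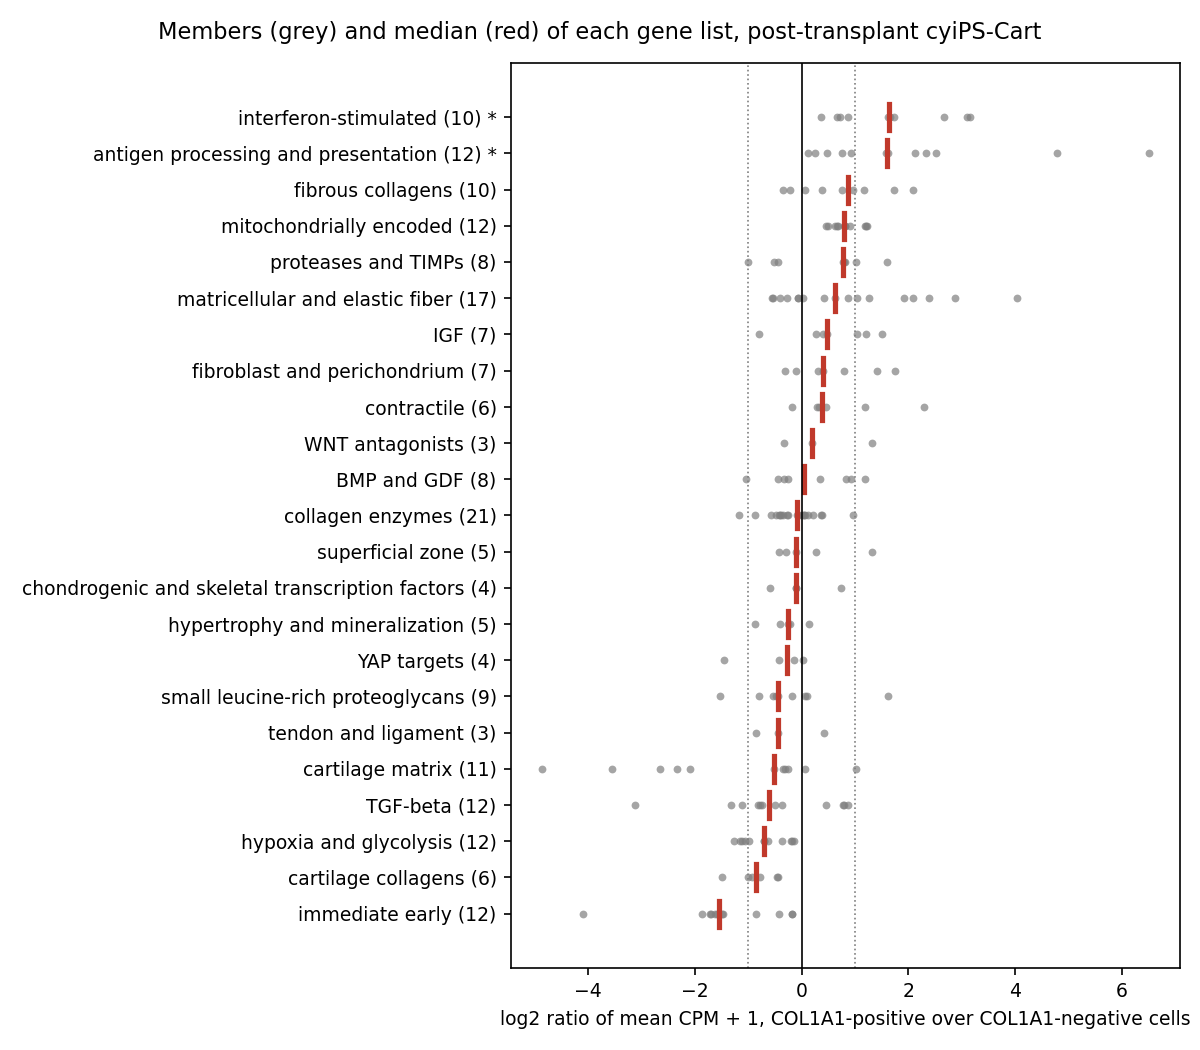
Log2 ratio (x axis) of COL1A1-positive over COL1A1-negative post-transplant cyiPS-Cart cells for the members (grey points, COL1A1 not drawn) and the median (red) of each gene list with at least 3 genes at 50 CPM, whose number stands in brackets. Dotted lines mark 2-fold, and stars mark lists chosen after the values were seen. Medians run from -1.54 (immediate early) to 1.64 (interferon-stimulated).

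Among the 12 highest genes several belonged to antigen presentation or to the interferon response, so 2 further lists were drawn up after the values were seen and describe a pattern already noticed. Cells present peptides cut by the immunoproteasome, moved by TAP and held by MHC class I with beta-2-microglobulin, and interferons raise these genes. Of 12 antigen processing and presentation genes at 50 CPM, 7 were at least 2-fold higher in COL1A1-positive cells, 0 lower, and the median was 1.60. B2M, which codes for beta-2-microglobulin, ranged from 150 to 25467 CPM in COL1A1-positive cells with a median of 4937 CPM, against 98.8 to 22445 CPM and a median of 1414 CPM (1.58). TAP1, a peptide transporter chain, had reads in 29 of 54 cells (53.7%, 39.6 to 67.4%) and 74 of 266 (27.8%, 22.5 to 33.6%), with a log2 ratio of 2.52. PSMB9, an immunoproteasome subunit, was found in 20 of 54 and 54 of 266 cells (2.32), and PSME1 (2.12) and PSME2 (1.62) code for its activator. The class I genes Mafa-B (0.76) and HLA-F (0.92) lay under 2-fold, and because MHC genes are near-identical to one another their reads may be divided uncertainly.

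Interferon-stimulated genes gave 6 of 10 at least 2-fold higher, 0 lower and a median of 1.64. Genes that reach 50 CPM only in the group where they are high raise such counts. Among members with a mean of 50 CPM over all 320 cells, 2 of 5 interferon-stimulated genes were higher (median 0.72) and 2 of 7 antigen processing and presentation genes (median 0.76). For this filter, here and in the other lists, no share over all genes was worked out. The shares of 7.01% higher and 6.04% lower belong to 50 CPM in either group. Over all members in the matrix the medians were 0.87 for 29 genes and 0.84 for 25 genes. IFI6, a mitochondrial protein of the interferon response, had reads in 53 of 54 and 257 of 266 cells, with medians of 823 and 269 CPM (1.66). LY6E, a surface protein (1.74), IFI16, a DNA sensor (2.66), and ISG15, a ubiquitin-like modifier (1.63), were also past 2-fold. IFIT2 (3.16) and MX1 (3.10), antiviral effectors, rested on 10 and 6 COL1A1-positive cells. In pre-transplant cyiPS-Cart, 3 of these genes reached 50 CPM with a median of -0.15 between the groups, and 7 antigen processing and presentation genes did so with a median of 0.08.

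Reads of CD74, the chaperone of MHC class II, were found in 9 of 54 COL1A1-positive cells (16.7%, 7.92 to 29.3%) and in 2 of 266 others (0.752%, 0.0912 to 2.69%). The class II gene Mafa-DRB had reads in 4 of the 9, while HLA-DRA was as frequent in COL1A1-positive (7 of 54) as in COL1A1-negative cells (36 of 266). Class II is best known from immune cells, whose part in these reads was not tested. PTPRC, the pan-leukocyte marker, was at 0 in all 54 COL1A1-positive cells, which allows a share of cells with reads, not of cells expressing the gene, of up to 5.56% (3 counts of the total). Of 6 macrophage markers measured, CSF1R, CD163, LYZ and C1QA were at 0 in COL1A1-positive cells. CD14 had reads in 1.85% of COL1A1-positive and 0.376% of COL1A1-negative cells, with 8.25 against 0.867 CPM, and CD68 in 1.85% and 1.88%. The COL1A1-positive cell with CD68 reads had none of CD74. Among T cell markers, CD2 had reads in 40.7% of COL1A1-positive and 30.5% of COL1A1-negative cells, with 10.3 against 8.37 CPM. CD3D had reads in 16.7% and 24.8%, with 2.27 against 6.83 CPM, and CD3E in 0 and 0.752%. The 9 cells with CD74 held 1345 to 13190 CPM of GFP-polyA and 21472 to 81954 CPM of COL1A1. With these 9 cells left out, the median of the antigen processing and presentation list was 0.99 and that of the interferon-stimulated list 0.80.

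The 7 COL1A1-positive cells without COL2A1 reads differed from the other 47 in several of these genes. The zeroing of low counts may also apply to COL2A1, so a low COL2A1 level in them cannot be told apart from absence. They held 18974 to 304255 reads per cell with a median of 50789, and 4 of them had CD74 reads. Their mitochondrially encoded share was 4.94 to 8.64% of reads, against 0.921 to 6.95% and a median of 2.09% in the 47 COL1A1-positive cells with COL2A1 reads. The summed level of the antigen processing and presentation list had a median of 22158 CPM in the 7 cells, 9232 CPM in the 47 cells and 4322 CPM in COL1A1-negative cells. For the interferon-stimulated list the medians were 7645, 1799 and 1018 CPM, so by their medians the 47 cells lay between the other groups in both lists.

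Matrix genes divided the same cells. POSTN had a median of 3228 CPM in the 7 cells and 0 in the 47, with means of 3334 and 579 CPM. CTSK, a cysteine protease that cuts type I collagen, had reads in all 7 cells, from 374 to 1336 CPM. FBLN2 was also found in all 7, against 25.5% of the 47. TAGLN had a mean of 381 CPM in the 7 cells and 33.9 CPM in the 47. Of the cartilage genes, SNORC and CILP were at 0 in all 7 cells and had reads in 20 and 14 of the 47, and MATN3 and CNMD, with reads in 3 and 8 of the 47, were at 0 as well. COL9A1 had a median of 52.6 CPM and ACAN a mean of 1981 CPM, while SOX9 had a median of 1398 CPM, against 132 CPM in the 47. COL1A1 itself was no higher there, with medians of 48045 and 63794 CPM. None of the 7 was marked as a doublet. With these cells left out and the 50 CPM filter applied again, 172 genes were at least 2-fold higher and 211 lower, the COL2A1 log2 ratio was -0.81 and the medians of the antigen processing and presentation and interferon-stimulated lists were 1.05 and 1.10. Of the listed and named genes, 13 that were past 2-fold came to lie within it, among them ASPN (0.91), MFAP2 (0.34), TIMP3 (0.87), IGFBP4 (0.90), CALD1 (0.90), BMP2 (-0.84) and P3H2 (-0.98), and 5 came to lie past it, SOX9 and PCNA, a replication clamp (-1.40), among them. Without the 7 cells POSTN was at 1.40, THBS2 at 1.25, MX1 at 1.99, MMP16 at -1.60 and IER3 at -2.56.

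**Figure D4:**
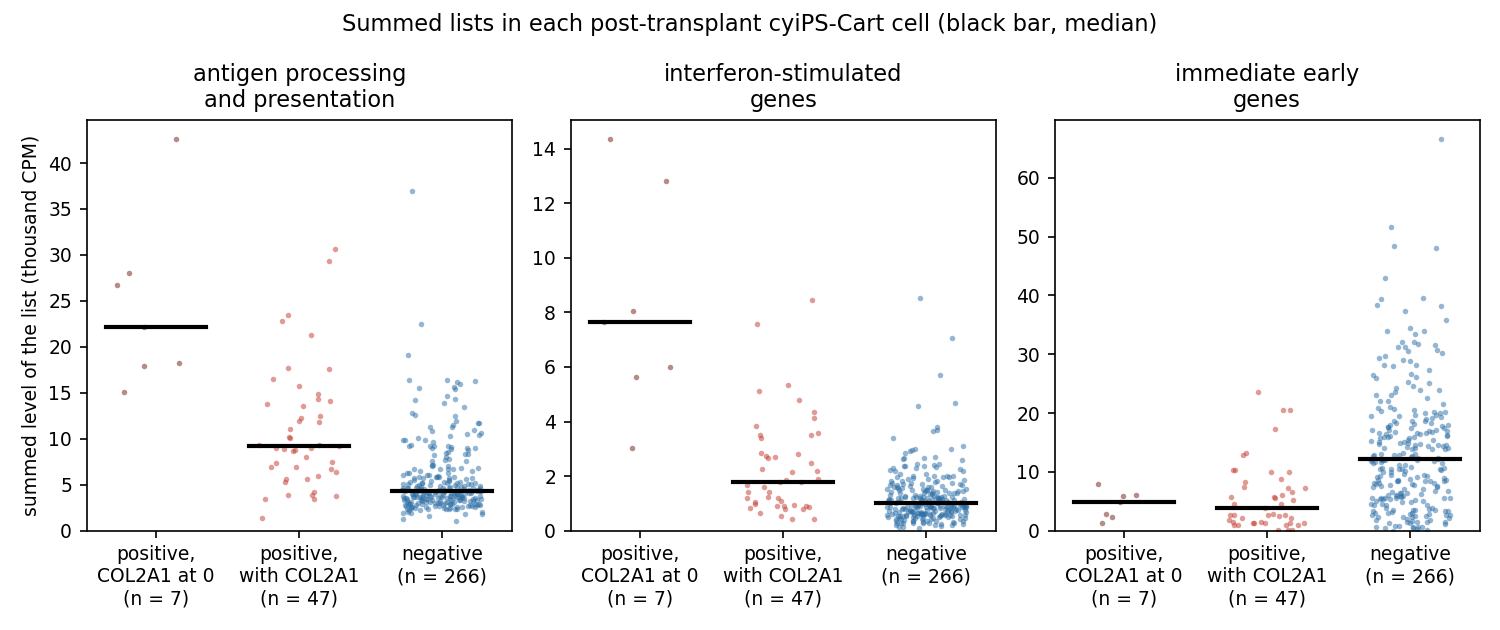
Summed CPM (y axis, in units of 1000 CPM) of antigen processing and presentation, interferon-stimulated and immediate early genes in each post-transplant cyiPS-Cart cell, for 7 COL1A1-positive cells with COL2A1 at 0, 47 COL1A1-positive cells with COL2A1 reads and 266 COL1A1-negative cells, with black bars at the medians. The antigen processing medians are 22158, 9232 and 4322 CPM, and the immediate early medians 4901, 3898 and 12103 CPM.

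The amount of COL1A1 also graded some genes. In the 27 cells at or above the median of COL1A1, BTN3A2 had a mean of 140.2 CPM and reads in 55.6% of cells, against 4.99 CPM and 18.5% in the 27 cells below it. SNORC had reads in 14.8% and 59.3% of these cells, and MATN3 in 0 and 11.1%. FBLN2 ran the other way, with 62.8 CPM at or above the median and 139 CPM below it. Within COL1A1-negative cells, those above the median of COL1A2 had lower means of MATN3 (196 against 589 CPM) and CNMD (172 against 599 CPM) than those at or below it, and a higher mean of B2M (2976 against 1489 CPM). The summed immediate early list had medians of 11680 and 12728 CPM in these groups of COL1A1-negative cells, and of 2435 CPM in COL1A1-positive cells at or above the median of COL1A1 and 5782 CPM below it.

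Among genes with reads in at least 25% of COL1A1-positive cells, the 12 highest were led by BTN3A2, a butyrophilin encoded beside the MHC, with 72.6 against 2.39 CPM (4.44). It had reads in 20 of 54 (37.0%, 24.3 to 51.3%) and 18 of 266 cells (6.77%, 4.06 to 10.5%). SULF1, which trims sulfate from heparan sulfate, followed with reads in 20 of 54 and 28 of 266 cells (3.66). Next came ECM1, a secreted matrix protein (3.27), FBLN2, IFI16, TAP1 and PLAA, which takes part in ubiquitin-dependent sorting (2.43). FAM180B (2.42), FBN2, SERPINF1, an anti-angiogenic serpin (2.38), PSMB9 and TAGLN completed the 12. Without the 7 cells that lacked COL2A1 reads, the log2 ratio of ECM1 was 1.31, that of FBLN2 1.91, that of PLAA 1.77 and that of TAGLN 1.09. All 12 were under 50 CPM in COL1A1-negative cells (2.39 to 25.7 CPM), so each was kept only through the group where it was high. The 12 lowest were led by TRIB1, a pseudokinase, with reads in 2 of 54 (3.70%, 0.452 to 12.7%) and 91 of 266 cells (-5.52), and MATN3. They included DNER, a Notch ligand (-4.19), FOSB, CNMD, PTGS2, the inducible cyclooxygenase (-3.50), DNAJA1, an HSP40 co-chaperone (-3.08), FOXA3, a forkhead factor (-3.07), CFAP20, a cilium protein (-3.00), and ITPKC, an inositol kinase (-2.75).

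These genes were compared with the same split in the other samples. Of the 12 highest, 6 reached 50 CPM in pre-transplant cyiPS-Cart and all 6 were higher in COL1A1-positive cells there, 3 of them 2-fold. ECM1 (4.35), FBLN2 (1.75) and SERPINF1 (1.85) were these 3, whereas BTN3A2, TAP1 and PSMB9 stayed under 50 CPM. In cyFT, 7 reached 50 CPM and 6 were higher, with TAGLN lower (-0.74). All 6 that reached it in cyAC were 2-fold higher, TAGLN among them (2.02), beside 24.1% of all genes at 50 CPM there. Named genes under 50 CPM are left out of these counts and went both ways. Lower in COL1A1-positive cells were, among others, TAP1 before transplantation (-1.76) and in cyAC (-1.62), and BTN3A2 in cyFT (-1.66) and cyAC (-2.24). Higher were, among others, IFI16 before transplantation (2.64) and FBN2 in cyFT (2.14). Of the 12 lowest, 10 reached 50 CPM in pre-transplant cyiPS-Cart and 7 were lower, 5 of them 2-fold. MATN3 (-2.68) and CNMD (-1.80) were among the 5, and PTGS2 (0.27), DNAJA1 (0.17) and CFAP20 (0.54) lay above 0. In cyFT all 11 measured were lower, 7 of them 2-fold, and in cyAC 10 of 11, 9 of them 2-fold, with 19 COL1A1-positive cells in cyAC. The list medians in pre-transplant cyiPS-Cart were 1.24 for fibrous collagens, -1.40 for cartilage matrix, 0.13 for matricellular and elastic fiber genes and -0.03 for immediate early genes. Post-transplant cyiPS-Cart, pre-transplant cyiPS-Cart, and cyAC with cyFT were 3 separate libraries, so differences between ratios of different libraries cannot be told apart from differences between the samples.

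**Figure D5:**
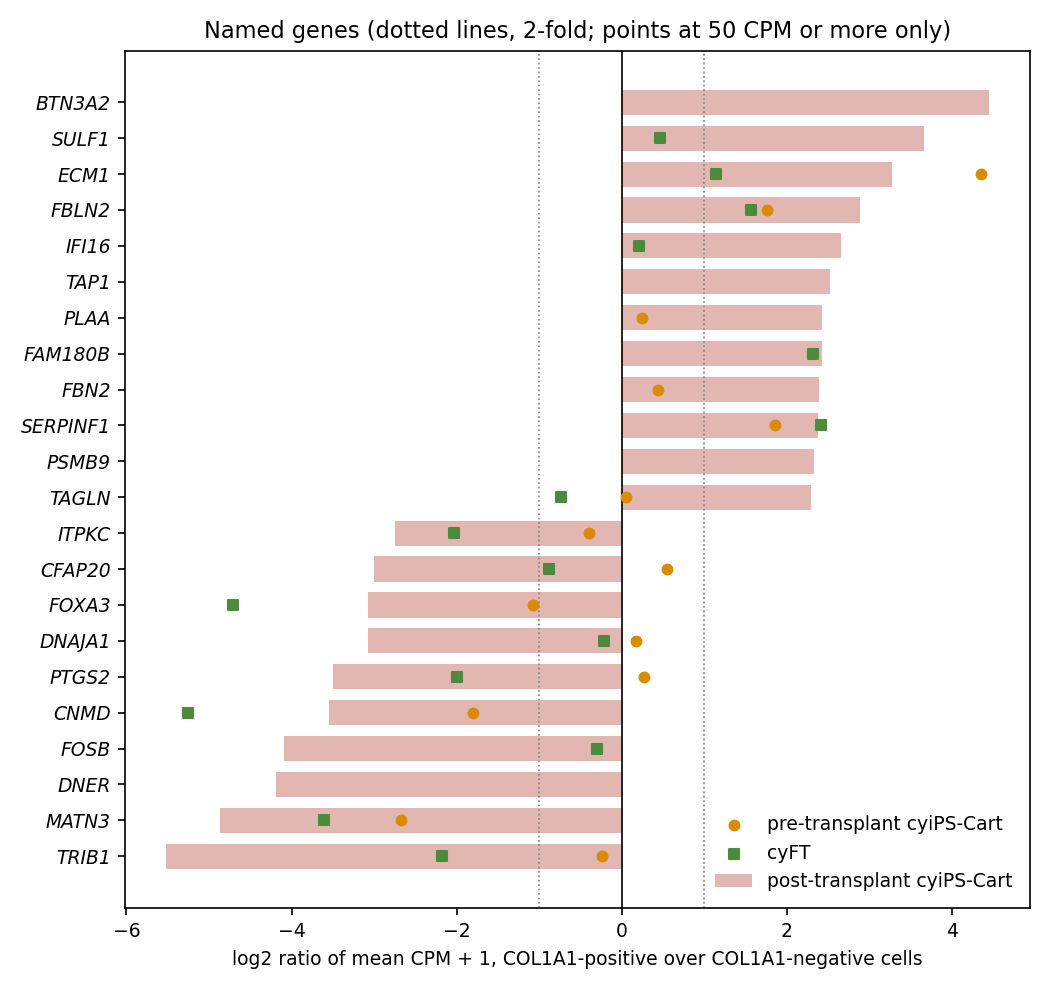
Log2 ratio (x axis) of COL1A1-positive over COL1A1-negative cells for the 12 highest and 10 of the 12 lowest genes in post-transplant cyiPS-Cart (bars), with the ratio in pre-transplant cyiPS-Cart (orange circles) and cyFT (green squares) where the gene reached 50 CPM. Bars run from -5.52 (TRIB1) to 4.44 (BTN3A2), and MATN3 and CNMD lie below -1 in all 3 samples.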

How the data were processed

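Single-cell transcriptomes were read by TAS-Seq in 3 transcriptome libraries. The deposited values are whole-number counts for each gene in each cell, which the authors made by assigning reads to Ensembl transcripts of Macaca_fascicularis_6.0 with Bowtie2 2.4.2 (the submitters' notes also name cutadapt 3.4, R 3.6.3 and GRCh38), separating samples by hashtag, zeroing low counts of strongly expressed genes as background, and reducing each of 4 samples to 320 cells (14020 genes). The hashtag libraries were not used here. No step that counts molecules is described, so counts were taken as reads.

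Cells of post-transplant cyiPS-Cart with COL1A1 counts above 0 were set against cells at 0. Counts were divided by the cell's total (CPM) and averaged over cells, and 1 CPM was added before log2 ratios were taken. Genes reaching 50 CPM in 1 of the groups or both were kept. Past 2-fold means a log2 ratio of at least 1 either way. With 1 sample per condition no p-value was computed. Genes named are COL1A1, COL1A2, COL2A1, GFP-polyA, the 12 highest and 12 lowest ratios with reads in at least 25% of cells of the higher group, and members of gene lists that were past 2-fold or define the list. CTSK was named after its values were seen. Some genes that the rule selects are not reported here, although counts and medians include them. Both the members and the lists were chosen with earlier results of these data known. Of 437 listed genes 384 were in the matrix.

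The contrast was tested on simulated counts of 2836 genes in 54 and 266 cells, where the direction was right for 100% of changed genes. A change of 1 on the log2 scale, which equals the cutoff, was past 2-fold in 50% of cases, and a change of 2 in 100%. Of unchanged genes 0.266% were past it. Counts were drawn independently for each gene, with 1 dispersion set for all genes and no zeroing of low counts. Only genes at 100 CPM or more in COL1A1-negative cells were changed. These shares are therefore not error rates for the measured cells. Depth per cell was 18974 to 304255 reads in COL1A1-positive and 14272 to 275333 in COL1A1-negative cells, and intervals are exact Clopper-Pearson or Poisson at 95%. Doublets were marked with scrublet in scanpy 1.11.5 and kept, and leaving them out was an alternative. Other alternatives were summed reads, TMM factors (edgeR 4.0.16), CPM without 4 collagen genes, thinning to 42133 reads, a pseudocount of 10, filters at 100 CPM, on the share of cells or none, and other definitions of positive cells. Members by their mean over all cells, all members, and listed genes without the cells that lacked COL2A1 reads were added after seeing the data. Scripts ran in Python 3.11.15 with numpy 2.4.6, pandas 2.3.3 and scipy 1.17.1, and in R 4.3.3.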

Additional observations from a re-analysis of the deposited data

Results flagged for a closer look

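DNAJA1, a co-chaperone of the HSP40 family, was lower in COL1A1-positive than in COL1A1-negative cells of post-transplant cyiPS-Cart (log2 ratio -3.08) and higher in those of cyAC (1.75), where 609 against 181 CPM were read. Opposite directions in the 2 samples drew attention to it, the difference was not tested, and cyAC held 19 COL1A1-positive cells.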

How the results depend on the processing

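All 25 named results (COL1A2 and the 24 genes with the highest and lowest ratios) kept their direction and stayed past 2-fold in each of 200 alternative values. The 24 genes were picked as the most extreme ratios of the same counts, so this is no independent check. Their ratios moved in size, with BTN3A2 from 2.74 to 5.38 and TAGLN from 1.09 to 3.27 across the settings. The count of genes at least 2-fold higher was 216 in the text and 334 with CPM without 4 collagen genes, 80 with a filter at 100 CPM, 1166 with no filter and 395 with the 27 positive cells at or above the median COL1A1. For genes at least 2-fold lower it was 186 in the text and 93, 1652 and 353 with the latter 3 settings. The COL2A1 log2 ratio of -1.01 became -1.03 with summed reads, -1.08 with TMM factors, -0.92 without the collagen genes, -0.97 after thinning (288 cells, 47 of them positive), -0.81 with positive cells that had COL2A1 reads and -1.24 with those at or above the median COL1A1, so that it was under 2-fold in 3 of these 6 settings. GFP-polyA at -0.25 became -0.28 (summed reads), -0.33 (TMM factors), -0.17 (without the collagen genes), -0.32 (positive cells with COL2A1 reads) and -0.40 (at or above the median COL1A1). With COL1A2 above 0 as the definition, 88.4% of cells were positive. The filter settings differ by construction in how many genes are counted, and for the other settings the cause was not tested. Leaving out replicates could not be run with 1 sample per condition. No paired analysis was possible because no condition has replicate samples.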

Other observations

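Markers of other cell types were read at low levels in both groups. Over 15 immune markers reads were found in 28 of 54 and 135 of 266 cells, the summed level ran from 0 to 446 CPM in COL1A1-positive and from 0 to 357 CPM in COL1A1-negative cells, 10 of the 15 had no read in COL1A1-positive cells, and 0 of 54 against 5 of 266 cells held reads of at least 3 markers. For 7 endothelial markers the highest sums were 94.2 and 108 CPM, and the defining VWF, CDH5 and KDR were at 0 in every cell. For 7 pericyte markers reads were found in 39 of 54 and 164 of 266 cells, and the medians were 39.4 and 18.5 CPM, with PDGFRB reads in 24.1% and 14.7% of cells. Pluripotency (9 genes) and neural lists (9 genes) had medians of 0 in both groups. Of 15 cycling genes 2 reached 50 CPM, both within 2-fold (median -0.19). CDK1 had reads in 11.1% of COL1A1-positive and 2.63% of COL1A1-negative cells, and TOP2A in 3.70% and 2.26%. MKI67 (1.85% and 3.38%) and CCNB1 (0 and 0.376%) went the other way. Both Y-linked genes at 50 CPM, RPS4Y2 and DDX3Y, were within 2-fold (median -0.19).

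In 4 lists other than the matricellular one, the median ratio and the summed level pointed in opposite directions. Summed medians were 4941 CPM in COL1A1-positive and 5636 CPM in COL1A1-negative cells for the IGF list, 2549 and 2720.04 CPM for BMP and GDF, 4733 and 4086 CPM for the superficial zone, and 90.7 and 52.8 CPM for cycling genes. A larger set of 3527 pre-transplant cyiPS-Cart cells, of which 928 were COL1A1-positive, gave 61 genes at least 2-fold higher and 62 lower, against 83 and 71 in the set of 320 cells.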
